A study of Homo sapiens with 6 samples.

Results

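The 10 genes described here are core factors of centriole duplication together with *CEP57* and its paralog. They were taken by name (*PLK4*, *CEP152*, *CEP192*, *CEP63*, *STIL*, *SASS6*, *CENPJ*, *CEP135*, *CEP57* and *CEP57L1*) from the 28395 genes of the count table, and all 10 were found. *CENPJ* was matched through its older symbol. RNA was sequenced from NCI-H146 (H146), an established neuroendocrine small-cell lung cancer line of wild-type genotype, on day 2 after transfection. One group of 3 libraries received a negative control siRNA and the other group of 3 libraries received an siRNA against *KIFC1*. The labels call the 3 libraries of each group biological replicates. A single *KIFC1* siRNA in a single cell line was sequenced, so the effect of the target and any other effect of that siRNA cannot be told apart. The comparison asked whether the transcripts of the centriole assembly machinery differed when *KIFC1* was knocked down.

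Centrioles are copied once in each cell cycle. The kinase PLK4 is brought to the parent centriole by the scaffold proteins CEP152, CEP192 and CEP63, phosphorylates STIL, and so starts the cartwheel of SASS6 on which CENPJ and CEP135 build the new centriole wall. CEP57 and CEP57L1 sit at the parent centriole and help keep the daughter engaged until mitosis ends, and CEP57 also takes part in holding the pericentriolar material together. KIFC1 is a minus-end directed kinesin that gathers extra centrosomes into a bipolar spindle, and cells with extra centrosomes are known to rely on it.

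*CEP57* was the 1 of the 10 genes that passed the test, as 0.697% of all genes tested did. It was 1.57-fold higher after *KIFC1* siRNA, and the 9 other genes did not pass. To describe the transcripts of the 10 genes, the 3' UTRs were searched on the transcript strand for the 6-base word GCAACC and the 7-base word GAGATCT. Both words came from an earlier scan of the 3' UTRs of changed genes in these same libraries, so their presence is a description and not independent evidence. The GCAACC sites in the canonical transcripts (GENCODE 44, GRCh38) of *CEP57*, of the cartwheel gene *SASS6* and of the paralog *CEP57L1* are printed, since they show the word in the gene that passed the test and in 2 genes that did not pass the test. Capitals mark the word.
*CEP57* 3' UTR, chr11:95831689-95831718, plus strand: cccctttccaaaGCAACCattaaacatact
*SASS6* 3' UTR, chr1:100084941-100084970, minus strand: acctcatagtatGCAACCaaagaatactaa
*CEP57L1* 3' UTR, first of 6, chr6:109165837-109165866, plus strand: agagttgctgtaGCAACCtcacagctgtgc

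GAGATCT was found in 1 of the 10 genes, *CEP57L1*, and it also occurs once in the coding sequence of *KIFC1*. Both sites are shown because one lies in the target of the siRNA. Capitals mark the word.
*KIFC1* coding sequence, chr6:33405471-33405499, plus strand: caagctacgtaGAGATCTacaatgagact
*CEP57L1* 3' UTR, chr6:109165016-109165044, plus strand: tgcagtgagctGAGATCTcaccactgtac

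Total counts ran from 15392374 to 17754458 per library, and mitochondrial genes took 8.34% to 13.1% of them. *KIFC1* itself was sparse: its counts were 14, 4 and 14 with control siRNA and 1, 1 and 0 with *KIFC1* siRNA. Its counts were lower in every *KIFC1* siRNA library than in any control library, and the ratio of the summed counts (2 against 32, scaled to library size) was 0.0676 (95% exact interval 0.00785 to 0.265, counting error only). The fitted log2 fold change was -3.66 (SE 0.82), which missed the threshold in edgeR (adjusted p = 0.0738) and passed it with the replicate number as a block (adjusted p = 0.00459). All 32-base words of its transcript that are found in the genome, which leaves out those across a splice junction, also occur on the alternate sequences of GRCh38, so its level is uncertain. Neuroendocrine transcripts were present in every library: *INSM1*, a neuroendocrine transcription factor, lay at 612.2 to 817.1 CPM (read counts per library size, scaled by TMM). *CHGA*, a secretory granule protein, lay at 8.81, 6.50 and 7.72 CPM in control and 9.25, 53.8 and 29.5 CPM in *KIFC1* siRNA libraries. Of the 6 neuroendocrine markers listed, 4 had log2 fold changes above 0 and 2 below. edgeR called 0 of the 6 (0.697% of all genes). With the block it called 1 higher and 1 lower (5.83% of all genes in either direction). Of 7 markers of blood, stromal and endothelial cells, *HBB* was at 0 counts in every library, and the 7 summed to 7.69 to 11.4 CPM in control and 8.93 to 12.2 CPM in *KIFC1* siRNA libraries.

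*CEP57* (NCBI gene ID 9702, chromosome 11 of GRCh38, 95789965 to 95832693, plus strand) lay at 79.7, 81.1 and 80.4 CPM in the control libraries. After *KIFC1* siRNA it lay at 122.9, 115.7 and 140.7 CPM. The control libraries were nearly level with each other, and every *KIFC1* siRNA library was above all of them. The counts behind these values were 1330, 1297 and 1478 against 1927, 1759 and 2300. Means were 80.4 ± 0.687 and 126.4 ± 12.8 CPM (SD, n = 3 each). *CEP57* rose by 0.65 on the log2 scale (SE 0.11, 95% interval 0.42 to 0.89, fold 1.34 to 1.85, adjusted p = 0.0218 in edgeR, quasi-likelihood test, Benjamini-Hochberg over 14777 genes). The log2 ratio of libraries with the same replicate number was 0.62, 0.51 and 0.81, so the direction held in 3 of 3 pairs. Over all genes tested, 0.697% were called in either direction and 0.325% were called higher, and 1 of the 10 genes was called. By its p, *CEP57* was the 20th of the 48 genes called higher. With 1 library left out the log2 fold change stayed between 0.57 and 0.71, but the adjusted p was 0.110, 0.136 and 0.132 without control replicates 1, 2 and 3 and 0.0659 without *KIFC1* siRNA replicate 1.

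**Figure D1:**
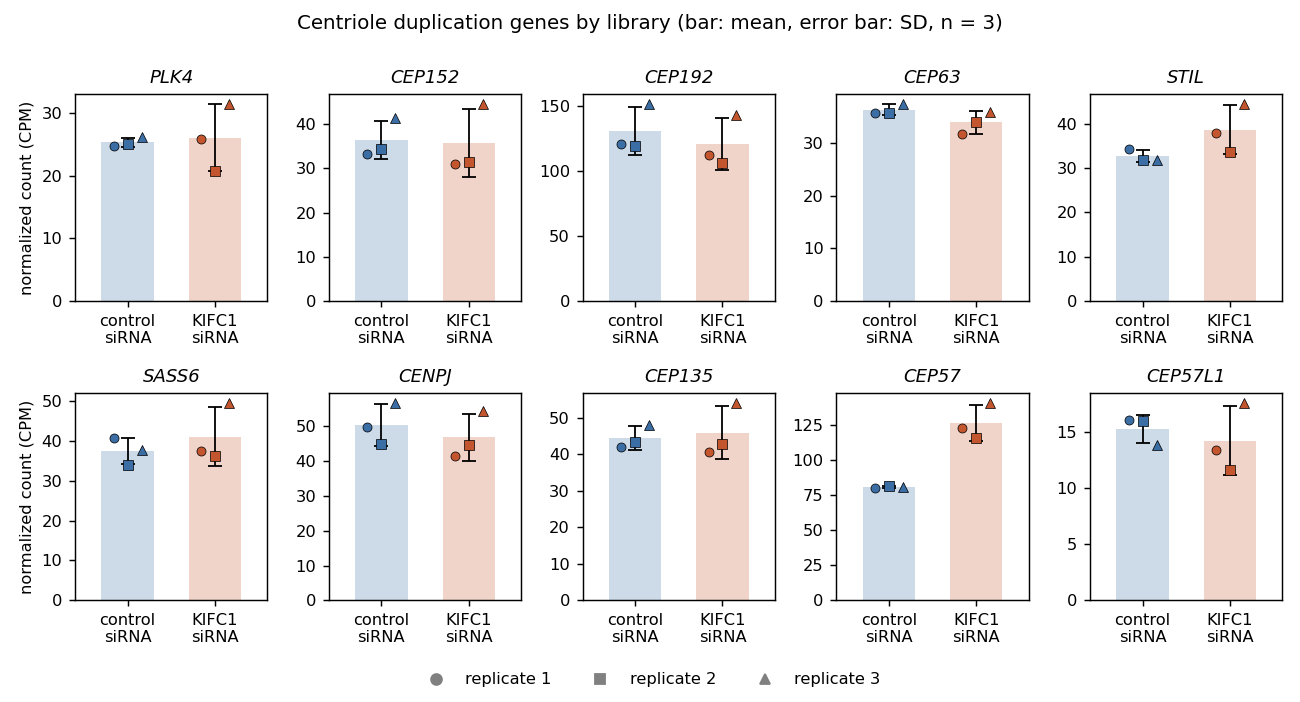
TMM-scaled CPM (y axis, from 0, with its own scale in each panel) of the 10 genes in the control siRNA and KIFC1 siRNA groups. Points are libraries, their shape gives the replicate number, bars are means and error bars are SD (n = 3); *CEP57* goes from 80.4 to 126.4 CPM with no overlap between the groups, while the points of the 9 other genes overlap.

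*CEP57L1*, the paralog of *CEP57* (NCBI gene ID 285753, chromosome 6, 109095110 to 109174418), was the least abundant of the 10. Its levels were 16.1, 15.9 and 13.9 CPM in control and 13.4, 11.6 and 17.6 CPM in *KIFC1* siRNA libraries. The groups overlapped, since *KIFC1* siRNA replicate 3 was above every control library and replicates 1 and 2 were below them. Its log2 fold change was -0.10 (SE 0.17, 95% interval -0.47 to 0.26, adjusted p = 0.922 in edgeR). The canonical transcripts of the paralogs share 0 words of 32 bases. Within each library, *CEP57* had 4.96, 5.09 and 5.80 times the count of *CEP57L1* in control and 9.18, 9.94 and 7.99 times after *KIFC1* siRNA. This ratio uses no scaling between libraries, and its groups did not overlap. On the log2 scale it was 2.40 ± 0.12 in control and 3.17 ± 0.16 after *KIFC1* siRNA (SD, n = 3 each), a difference of 0.77 with p = 0.1 in a two-sided exact permutation test, the smallest p that 3 against 3 libraries allow.

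The share of *CEP57* in the counts of the 10 genes restates its rise beside the 9 others and is not separate evidence. The share was 16.7%, 17.4% and 15.3% in the control libraries, and 24.8%, 24.2% and 22.8% after *KIFC1* siRNA. The Wilson 95% intervals of single libraries reached at most 18.3% in control and went no lower than 22.0% after *KIFC1* siRNA, and they cover counting error only. The 9 other genes summed to 408.9 ± 31.98 CPM in control and 403.2 ± 63.19 CPM after *KIFC1* siRNA (SD, n = 3 each). In these bulk samples, a change in the number of cells that express a gene and a change in RNA per cell cannot be told apart.

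*PLK4*, the kinase that triggers duplication (NCBI gene ID 10733, chromosome 4, 127880893 to 127899224), lay at 24.8, 25.1 and 26.1 CPM in control and at 25.9, 20.8 and 31.5 CPM in *KIFC1* siRNA libraries. The control values lay inside the range of the *KIFC1* siRNA values. Its log2 fold change was 0.04 (SE 0.15, 95% interval -0.28 to 0.37, adjusted p = 0.971 in edgeR). Without *KIFC1* siRNA replicate 3, its highest library, the log2 fold change was -0.12 (adjusted p = 0.656 in edgeR).

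The scaffolds that carry PLK4 to the parent centriole had 3 log2 fold changes below 0, none of which passed the test. *CEP192* (chromosome 18, 12991362 to 13125052) had the highest CPM of the 10 in control libraries, with 120.6, 119.0 and 151.8 in control and 112.7, 106.1 and 143.4 after *KIFC1* siRNA. In both groups the third replicate was the high one, and within each replicate number the *KIFC1* siRNA library was the lower. Its log2 fold change was -0.11 (SE 0.14, adjusted p = 0.897 in edgeR). *CEP152* (chromosome 15, 48712928 to 48811146) had 36.4 ± 4.38 CPM in control and 35.7 ± 7.70 after *KIFC1* siRNA (SD, n = 3 each), and a log2 fold change of -0.03 (SE 0.16, adjusted p = 0.987). *CEP63* (chromosome 3, 134485699 to 134587789) had 36.3 ± 1.03 and 33.9 ± 2.14 CPM, and a log2 fold change of -0.10 (SE 0.11, adjusted p = 0.882). *CEP63* shares 455 exonic bases with *ANAPC13* on the opposite strand, and since no strand setting is stated for the counting, reads from the 2 genes cannot be told apart there.

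The cartwheel genes had log2 fold changes above 0 that did not pass the test. *STIL*, the PLK4 substrate that recruits SASS6 (chromosome 1, 47250139 to 47314892), lay at 34.4, 31.8 and 31.9 CPM in control and at 37.8, 33.6 and 44.5 CPM after *KIFC1* siRNA. The groups overlapped by 1 library, *KIFC1* siRNA replicate 2. *STIL* had the largest log2 fold change after *CEP57*, at 0.24 (SE 0.13, 95% interval -0.03 to 0.52, adjusted p = 0.627 in edgeR and 0.219 with the replicate number as a block). *SASS6*, which forms the hub and spokes (chromosome 1, 100083563 to 100132955), lay at 40.8, 34.1 and 37.6 CPM in control and 37.4, 36.3 and 49.6 CPM after *KIFC1* siRNA, with a log2 fold change of 0.13 (SE 0.14, adjusted p = 0.875). Only *KIFC1* siRNA replicate 3 was above the control range of *SASS6*, and without it the log2 fold change was -0.03.

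The wall genes lay close to 0. *CENPJ*, which sets the length of centriolar microtubules (chromosome 13, 24882279 to 24922889), had 50.5 ± 6.002 CPM in control and 46.9 ± 6.82 after *KIFC1* siRNA, with a log2 fold change of -0.11 (SE 0.14, adjusted p = 0.897 in edgeR). *CEP135*, which links the cartwheel to the wall (chromosome 4, 55948871 to 56033361), had 44.5 ± 3.19 and 45.9 ± 7.19 CPM, with a log2 fold change of 0.05 (SE 0.13, adjusted p = 0.963). For both genes the ranges of the groups overlapped.

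**Figure D2:**
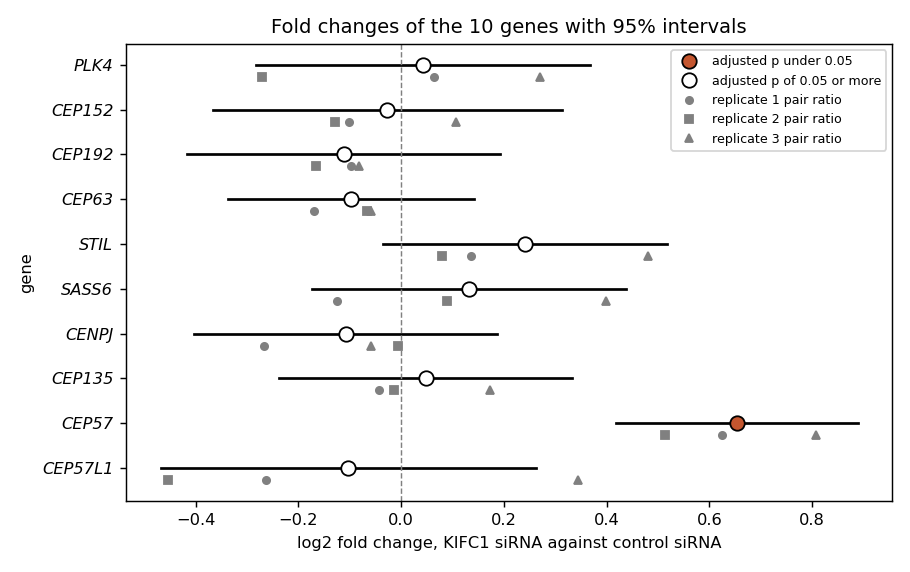
Log2 fold change of *KIFC1* siRNA against control siRNA (x axis) for each of the 10 genes (y axis), with the edgeR 95% interval as a line and the log2 ratios of the 3 same-numbered library pairs as small grey symbols. Only the interval of *CEP57* (0.42 to 0.89) lies off 0, and the intervals of the 9 other genes lie within -0.47 to 0.52.

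Across the 10 genes, 5 log2 fold changes were above 0 and 5 below, with a median of 0.01, which was also the median of all genes tested. The median of the 9 genes other than *CEP57* was -0.03, and their adjusted p ran from 0.627 to 0.987 in edgeR and from 0.219 to 0.933 with the replicate number as a block. Both the blocked fit and DESeq2 called *CEP57* and no other of the 10, against 5.83% and 1.78% of all genes tested. At an unadjusted p under 0.05, *CEP57* was again the only one in edgeR (9.26% of all genes), and *STIL* joined it with the block (17.7% of all genes). *CEP57* was also the 1 of 10 genes whose groups did not overlap, against 15.5% of all genes in either direction and 7.99% in the higher one. In all 3 same-numbered pairs, *CEP192*, *CEP63* and *CENPJ* were lower, against 19.4% of all genes, and *CEP57* and *STIL* were higher, against 19.5%.

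*KIFC1* siRNA replicate 3 was the highest library of its group for all 10 genes, whereas it was the highest for 38.7% of all genes tested. Control replicate 3 was the highest of its group for 6 of the 10, against 36.9% of all genes. The SD in CPM was larger in the *KIFC1* siRNA group for 10 of 10 genes. That group's SD includes the high replicate 3, and the share of all genes with a larger SD was not computed. The larger SD is therefore not read as a trait of the 10 genes. Without *KIFC1* siRNA replicate 3, all 10 log2 fold changes were lower than with it. This follows from its being the highest library of its group and is not a further result. In that fit, 8 of the 9 other than *CEP57* were below 0 (-0.29 to 0.13, lowest adjusted p 0.234 in edgeR). *CEP57* was still called, at 0.57 (adjusted p = 0.00296). With replicate 3 left out of both groups, an alternative chosen after seeing the data, *CEP57* had a log2 fold change of 0.56 (adjusted p = 0.0104) and was the only one of the 10 called.

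Levels between genes can be compared only per length, and the lengths of the canonical transcripts were used. The order depends on that choice. All annotated exons together span 7101 bases for *CEP57*, against 3141 in its canonical transcript. For *CEP192* they span 9897, against 7960. On the canonical lengths *CEP57* was the most abundant in control libraries, with 25.6 ± 0.219 CPM per kilobase (SD, n = 3), followed by *CEP192* with 16.4 ± 2.32. *CENPJ* and *SASS6* followed with 9.93 ± 1.18 and 9.75 ± 0.869, with overlapping ranges, and *CEP135* with 7.94 ± 0.571. *PLK4*, *CEP152*, *STIL* and *CEP63* lay together between 6.28 and 6.60, each with a range that overlapped its neighbor's in this order. *CEP57L1* was last with 1.19 ± 0.096, on a transcript of 12903 bases of which 11448 are 3' UTR, so its value depends on how much of that UTR is present in these cells. After *KIFC1* siRNA, *CEP57* was at 40.3 ± 4.09 CPM per kilobase and *CEP57L1* at 1.10 ± 0.238.

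Neighboring genes and copies were examined for *CEP57*. Of the 32-base words of its transcript that are found in the genome, 1.46% occur elsewhere on the primary chromosomes of GRCh38 and 0 on the alternate sequences. In GENCODE 44 its exons share 1481 bases with *MTMR2*, a phosphatase gene on the opposite strand. *MTMR2* lay at 106.4 ± 1.63 CPM in control and 104.2 ± 16.8 after *KIFC1* siRNA (SD, n = 3 each), and its log2 fold change was -0.03 (edgeR, adjusted p = 0.979). In the RefSeq annotation of GRCh38.p14 the span of *CEP57* overlaps no other gene, and *MTMR2* begins 186 bases beyond its end.

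The word GCAACC was in the 3' UTR of 5 of the 10 genes, against 23.2% of the 12973 tested genes whose 3' UTR has 50 bases or more. *CEP57*, *STIL*, *SASS6* and *CEP63* had 1 copy and *CEP57L1* had 6. Genes that hold the word have longer 3' UTRs (median 3129 bases, against 987 without it). The log2 fold changes of these 5 genes, in that order, were 0.65, 0.24, 0.13, -0.10 and -0.10, so the copy number did not order them. *PLK4*, *CEP152*, *CEP192*, *CENPJ* and *CEP135* hold neither word in the 3' UTR, and their log2 fold changes ran from -0.11 to 0.05. Over all genes, the median log2 fold change was 0.03 with GCAACC and 0.01 without it, and -0.11 with GAGATCT and 0.02 without it. With the replicate number as a block, 219 of the 3015 genes with GCAACC were called higher and 108 lower. Of the 1163 genes with GAGATCT, 13 were called higher and 201 lower. That fit called 407 higher and 454 lower of all 14777 genes tested. The words were found in these same libraries, so these counts are not independent evidence.

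The genes whose levels followed those of *CEP57* most closely were *STK3*, *NAP1L3*, *XPR1*, *BAALC* and *SLC17A5*. Likeness was the root mean square difference of log2 CPM over the 6 libraries, each gene centered on its own mean, among 11802 other genes with a mean log2 CPM of at least 2. It was 0.061 for *STK3*, a Hippo pathway kinase, and 0.086 for *SLC17A5*, a lysosomal sialic acid transporter. Since they were chosen for their likeness to a gene that rose, their direction follows from the choice and no test is given. Their log2 fold changes were 0.55 for *STK3*, 0.53 for *NAP1L3*, 0.60 for *XPR1*, a phosphate exporter, 0.64 for *BAALC* and 0.53 for *SLC17A5*. All 5 have GCAACC in the 3' UTR (23.2% of all genes with a 3' UTR) and none has GAGATCT (8.96%). GCAACC came from changed genes of these libraries and the 5 were chosen for a like rise. Their sharing the word is therefore not independent evidence. Among the 10 genes the nearest to *CEP57* was *STIL*, at 0.216, and *CEP57L1* and *CEP192* were the farthest, both at 0.401.

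**Figure D3:**
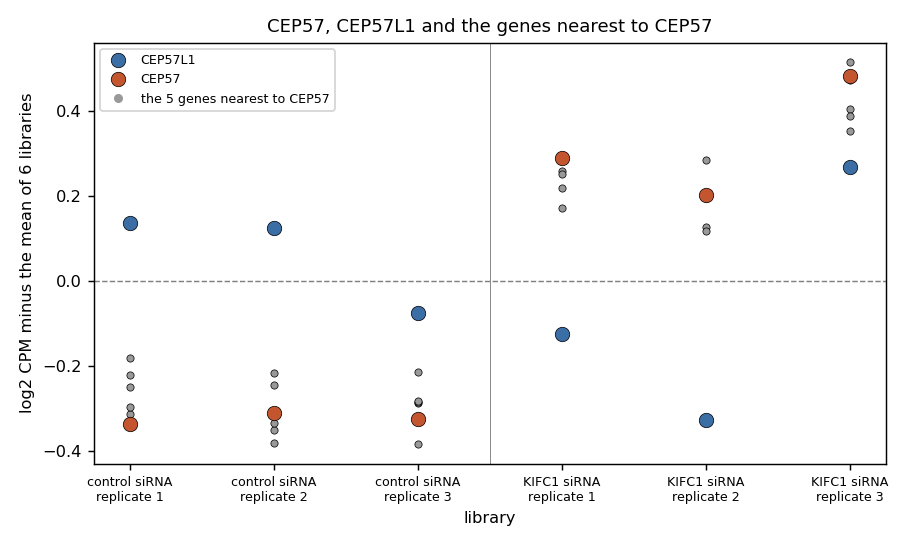
Log2 CPM of *CEP57* (orange), *CEP57L1* (blue) and the 5 genes nearest to *CEP57* (grey) in each library (x axis), each gene centered on its mean over the 6 libraries (y axis). *CEP57* and the 5 genes lie below 0 in the 3 control libraries and above 0 in the 3 KIFC1 siRNA libraries, by the choice of those genes, while *CEP57L1* crosses 0 within both groups.

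The other genes of the pathway were counted from 4 lists of 68 genes, of which 67 were tested. *CEP120*, a centriole elongation factor, was listed at 0 counts in every library and was not tested. Of the 67, edgeR called 0 genes, 6 had an unadjusted p under 0.05, all with log2 fold changes below 0 (against 4.55% of all genes), and DESeq2 called 0. The median log2 fold change was -0.04, with 24 above 0 and 43 below. With the replicate number as a block, 2 genes fell (against 3.07% of all genes called lower in that fit) and 0 were called higher. Without *KIFC1* siRNA replicate 3, the fit without the block called 3 of the pathway genes (against 3.13% of all genes in that fit), *NIN*, *CEP170* and *BTRC*, a ubiquitin ligase subunit that targets PLK4, each with a log2 fold change below 0.

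The 2 genes called with the block were *NIN* and *PLK2*. *NIN*, a subdistal appendage protein that anchors microtubules, went from 70.8 ± 10.3 to 51.9 ± 9.15 CPM (SD, n = 3 each; log2 fold change -0.45, adjusted p = 0.287 in edgeR and 0.00216 with the block). *PLK2*, a kinase that acts on centriole duplication early in the cycle, went from 42.0 ± 2.19 to 32.7 ± 3.47 CPM (log2 fold change -0.36, adjusted p = 0.283 and 0.0236). *NIN* holds 2 copies and *PLK2* 1 copy of GAGATCT in the 3' UTR, and they were the 2 of the 67 genes that hold it, against 8.96% of all genes with a 3' UTR. The word came from changed genes of these same libraries, so its presence in the 2 called genes is not independent evidence. Genes that hold it have longer 3' UTRs (median 3420 bases, against 1211 without it). The 3' UTR has 3700 bases in *NIN* and 601 in *PLK2*.

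By list, the 23 elongation genes had 12 values above 0 and 11 below (median 0.00), from *KIF24*, a kinesin that trims centriolar microtubules, at -0.18 to *CCP110*, the cap of the centriole end, at 0.29 (adjusted p = 0.577 in edgeR). The 18 regulators of duplication had 6 above 0 and 12 below (median -0.06), from *PLK2* to *FBXW5*, part of the ubiquitin ligase that targets SASS6, at 0.18. The 16 pericentriolar genes had 4 above 0 and 12 below (median -0.04), from *TUBG1*, gamma-tubulin, at -0.13 to *TUBGCP3*, its ring partner, at 0.20. Counted as for *CEP57*, 43.3% of the words of *TUBG1* occur elsewhere on the primary chromosomes, and of those of *TUBGCP3* 45.6% occur on alternate sequences, so both values are uncertain. The 10 appendage genes had 2 above 0 and 8 below (median -0.08), from *CEP170* at -0.90 (SE 0.33, adjusted p = 0.354) to *SCLT1*, a distal appendage protein, at 0.12. *CEP170*, a subdistal appendage protein, lay at 11.63, 12.01 and 10.17 CPM in control and 3.32, 4.34 and 10.3 CPM after *KIFC1* siRNA, so *KIFC1* siRNA replicate 3 lay with the controls. Without that library its log2 fold change was -1.56 (adjusted p = 0.000566 in edgeR). All of its words found in the genome also occur on alternate sequences and 70.7% elsewhere on the primary chromosomes, so its value is uncertain too.

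**Figure D4:**
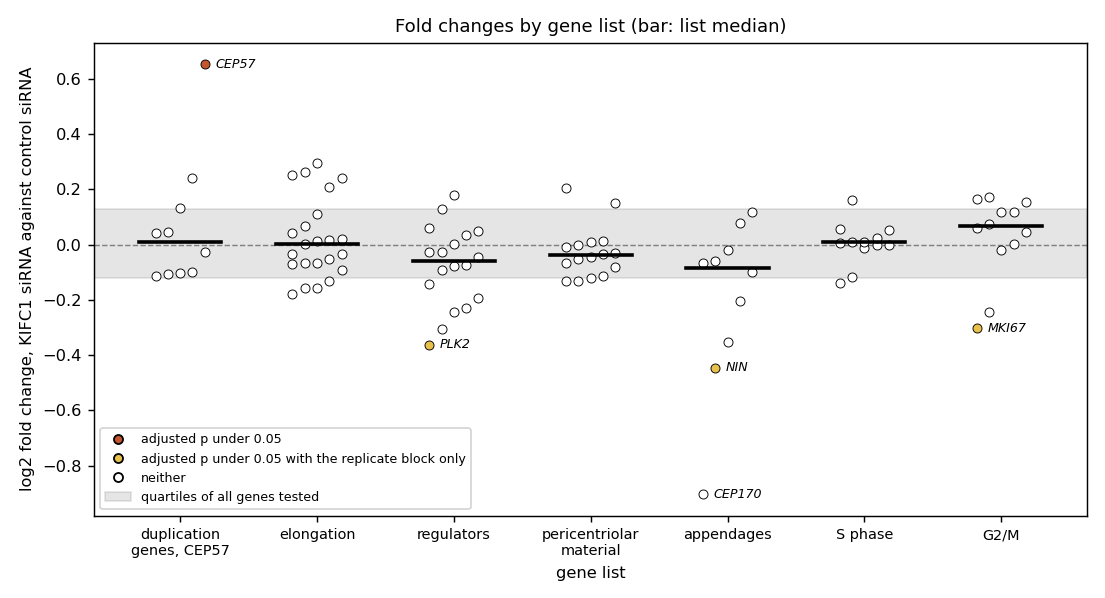
Log2 fold change (y axis) of each gene of the centriole and cell cycle lists (x axis), with list medians as bars and the quartiles of all tested genes (-0.12 to 0.13) shaded. *CEP57* at 0.65 is the only filled orange point (adjusted p under 0.05), and *PLK2*, *NIN* and *MKI67* are yellow (adjusted p under 0.05 with the replicate block only).

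Because several of the 10 genes are transcribed with the cell cycle, S-phase and G2/M genes were read beside them. The 12 S-phase genes had 7 values above 0 and 5 below, with a median of 0.01, and summed to 2375 to 2573 CPM in control and 2371 to 2593 CPM after *KIFC1* siRNA. The 12 G2/M genes had 9 above 0 and 3 below, with a median of 0.07, and summed to 2513 to 2782 CPM and 2347 to 3078 CPM. edgeR called 0 of the 24 genes, 0 had an unadjusted p under 0.05 and DESeq2 called 0. With the replicate number as a block, 1 of the 24 was called, against 5.83% of all genes. It was the proliferation marker *MKI67*, which fell by 0.33 on the log2 scale (adjusted p = 0.00914 in edgeR with the block). The part of cell cycle position in the levels of the 10 genes was not tested.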

How the data were processed

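RNA from 6 H146 libraries, 3 with control siRNA and 3 with *KIFC1* siRNA, was sequenced. Per the submitters' processing notes, reads were aligned to GRCh38 with HISAT2 2.2.1 and counted with featureCounts 2.0.8. The authors deposited these as whole, not normalized read counts for 28395 NCBI gene IDs. The annotation and strand setting are not given in the sources used here. Of the IDs, 650 had no symbol in the reference tables and stayed in the fit.

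R 4.3.3 with edgeR 4.0.16 was used. Low genes were removed by filterByExpr (14776 genes kept, plus *KIFC1*), libraries were scaled by TMM, and a robust quasi-likelihood test was adjusted by Benjamini-Hochberg over the 14777 genes, with a threshold of 0.05. The common biological coefficient of variation was 13.1%. SE is the absolute log2 fold change over the square root of F. The fit was tested on simulated data. The alternatives used DESeq2 1.42.0 and limma-voom (limma 3.58.1), other scaling, other filters, a replicate block and leaving out libraries. Sequences came from GENCODE 44 canonical transcripts on GRCh38. A copy means 32-base words of a transcript that recur elsewhere in the genome or on the 261 alternate sequences. Words were counted on the transcript strand. Protein sequences were not used here. Figures were drawn with matplotlib 3.10.9 and tables made with pandas 2.3.3, numpy 2.4.6 and scipy 1.17.1 in Python 3.11.15.

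Both groups share replicate numbers. After removal of group means, same-numbered libraries correlated at 0.488, 0.386 and 0.454 over 11803 genes and others at -0.424 to -0.0310. Removing the means itself lowers the others when the same-numbered values are above 0, so the negative values add no separate evidence. From the same-numbered values, the numbers were taken to pair the libraries. The labels say biological replicates and do not say what a number marks. The replicate block was an alternative because the study's methods do not use it. The main fit therefore leaves out the pairing taken from the numbers, and its p-values do not account for it.

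The genes and lists were chosen with earlier results of these data known. Named are *KIFC1*, the 10 genes, the listed pathway genes with an adjusted p under 0.05 in the fit with or without the block, the largest rise and fall of each list, and the 5 genes nearest to *CEP57*. *MTMR2*, *ANAPC13*, *CEP120*, *BTRC*, *MKI67*, *INSM1*, *CHGA* and *HBB* are named outside this rule, after their values were seen. Some marker values and sequence sites are not reported here.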

Additional observations from a re-analysis of the deposited data

How the results depend on the processing

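Over 14 alternatives, 1 of them (both replicate 3 libraries left out) chosen after seeing the data, *CEP57* stayed higher, at 0.56 to 0.71 on the log2 scale. It was called in 10 of the 14. With 1 library left out, or both replicate 3 libraries, 0 to 1 of the 10 genes were called (0 without any 1 of the control libraries or *KIFC1* siRNA replicate 1), 24 (without control replicate 3) to 468 (without *KIFC1* siRNA replicate 3) of all genes and 0 to 3 of the pathway genes, and the *CEP57* log2 fold change ran from 0.56 to 0.71. Fewer samples entered those fits. Of all genes, 265 were called with no filter on low counts, 263 by DESeq2, 861 with the replicate block and 204 without both replicate 3 libraries, against 103. The paired fit with the replicate block called *KIFC1* and 2 pathway genes, and it changed no call among the 10 genes. The fit without both replicate 3 libraries also called 2 pathway genes, *NIN* (log2 fold change -0.48) and *CEP170* (-1.63). Leaving out 1 library or both replicate 3 libraries gave log2 fold changes of -0.12 to 0.18 for *PLK4*, -0.22 to 0.077 for *CEP152*, -0.26 to 0.011 for *CEP192*, -0.029 to 0.21 for *SASS6*, -0.089 to 0.13 for *CEP135* and -0.36 to 0.016 for *CEP57L1*. *CEP152* was above 0 in 3 of those fits, at 0.077, 0.064 and 0.050. Without both replicate 3 libraries, *PLK4* (-0.099), *SASS6* (-0.029) and *CEP135* (-0.034) were below 0. None of these values passed the test in any of the fits, and the cause of the sign changes was not tested. With 3 libraries a group, 9 of the 10 genes had intervals that reach 0, and differences inside those intervals were not detectable.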
